A study of Mus musculus with 4 samples.

Results

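The genes described here are the variable (V) segments of the T cell receptor α and β chains, taken as all genes whose symbol starts with Trav or Trbv. They are 163 of the 32285 genes counted, 35 of them Trbv and 128 Trav, and the annotation lists 22 Trbv and 108 Trav as V genes and the other 13 and 20 as V pseudogenes. The cells came from subcutaneous tumors of KPC cells, a mouse pancreatic tumor line, grown in young adult male C57BL/6NHsd mice. Tumors were left untreated, injected once with ADU-S100, an agonist of the innate DNA-sensing adaptor STING, exposed through repeated intraperitoneal injections to the antibody 4H8, an agonist of the lymphotoxin-β receptor (LTβR), or given both agonists (combination). Tumors of each group were pooled before live CD45+ leukocytes were sorted, and each of the 4 groups is 1 single-cell RNA-seq library made with a 5′ kit, so a difference between them has no replicate here, and treatment, animals and library cannot be told apart. The study's methods describe more than one single-cell experiment with separate mice, the labels do not say which of them gave these libraries, and any further libraries are not analysed here.

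Each T cell builds its receptor by joining 1 V segment to other segments of the same locus, and a mature cell usually expresses a single productive β chain, while a second rearranged α chain is common. A V gene transcript therefore marks the receptor of its cell in a way that most transcripts do not, and cells that descend from a common ancestor carry the same V genes. CD8 T cells read peptides on MHC class I, CD4 T cells read them on MHC class II, and γδ T cells use receptors of another pair of chains, whose δ locus lies within the α locus and shares some V segments, those with "dv" in their names. The V gene does not give the junction (CDR3) of the receptor, so cells with a matching Trav and Trbv may still differ in their receptors.

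A cell was assigned ("called") the Trbv gene and the Trav gene with most unique molecular identifiers (UMIs, 1 per captured transcript), and a tie gave no call. Of 23011 cells that passed the quality limits, 8353 had a UMI of Cd3d, Cd3e or Cd3g, which encode the invariant chains of the receptor complex. These were 2245 cells of the untreated, 1403 of the STING agonist, 2483 of the LTβR agonist and 2222 of the combination library, and values listed by library keep this order. A Trbv gene was called in 5626 (67.4%), a Trav gene in 3700 (44.3%) and both in 3125 (37.4%). The filtered cells of the 4 libraries had median depths of 5750 to 7094 UMIs, and 284 cell barcodes occurred in more than 1 library. Intervals for shares of cells are exact (Clopper-Pearson) 95% intervals and cover counting error only. They treat cells as independent, which cells of a shared ancestor are not. The bounds given for a ratio between shares divide opposite ends of the intervals of those shares. Such bounds are not a 95% interval of the ratio.

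The V segments that led the results are shown first, as the coding part of the second exon on the plus strand of GRCm38, read with the GENCODE annotation and given from the 3′ end for at most 300 bases. Capitals mark the last in-frame cysteine codon, which stands near the end of the V segment, where the junction begins. Trbv13-1 (chr6:41116175-41116468), Trbv29 (chr6:41271587-41271881), Trbv3 (chr6:41048529-41048828), Trbv19 (chr6:41178749-41179048) and Trbv15 (chr6:41141361-41141658) each led a library or a receptor pair among CD8 cells. Trav13-4-dv7 (chr14:53757643-53757921) led the cells with a δ chain transcript.
Trbv13-1: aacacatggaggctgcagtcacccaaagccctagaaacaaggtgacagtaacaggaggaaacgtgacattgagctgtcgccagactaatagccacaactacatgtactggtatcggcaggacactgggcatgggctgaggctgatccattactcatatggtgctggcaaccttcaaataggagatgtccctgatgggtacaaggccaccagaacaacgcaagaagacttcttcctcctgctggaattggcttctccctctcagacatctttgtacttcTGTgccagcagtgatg
Trbv29: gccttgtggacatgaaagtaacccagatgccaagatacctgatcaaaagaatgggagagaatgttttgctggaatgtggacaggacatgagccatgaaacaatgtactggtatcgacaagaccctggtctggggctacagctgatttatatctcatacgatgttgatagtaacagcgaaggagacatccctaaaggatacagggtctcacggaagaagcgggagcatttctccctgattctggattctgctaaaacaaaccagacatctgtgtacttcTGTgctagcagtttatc
Trbv3: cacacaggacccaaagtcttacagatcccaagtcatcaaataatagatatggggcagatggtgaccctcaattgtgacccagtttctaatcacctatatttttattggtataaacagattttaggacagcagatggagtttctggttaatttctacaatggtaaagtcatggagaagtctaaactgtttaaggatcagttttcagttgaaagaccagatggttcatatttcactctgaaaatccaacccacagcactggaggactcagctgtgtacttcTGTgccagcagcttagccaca
Trbv19: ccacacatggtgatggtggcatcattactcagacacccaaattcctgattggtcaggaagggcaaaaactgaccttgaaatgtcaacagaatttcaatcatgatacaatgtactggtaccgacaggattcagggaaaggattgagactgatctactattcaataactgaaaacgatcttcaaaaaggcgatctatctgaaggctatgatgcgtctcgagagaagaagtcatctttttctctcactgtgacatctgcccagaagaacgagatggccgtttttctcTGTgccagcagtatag
Trbv15: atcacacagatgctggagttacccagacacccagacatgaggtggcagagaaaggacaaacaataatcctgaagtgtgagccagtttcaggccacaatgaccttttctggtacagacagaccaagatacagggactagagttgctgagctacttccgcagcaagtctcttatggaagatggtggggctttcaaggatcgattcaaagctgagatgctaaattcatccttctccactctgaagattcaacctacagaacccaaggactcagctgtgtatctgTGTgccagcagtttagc
Trav13-4-dv7: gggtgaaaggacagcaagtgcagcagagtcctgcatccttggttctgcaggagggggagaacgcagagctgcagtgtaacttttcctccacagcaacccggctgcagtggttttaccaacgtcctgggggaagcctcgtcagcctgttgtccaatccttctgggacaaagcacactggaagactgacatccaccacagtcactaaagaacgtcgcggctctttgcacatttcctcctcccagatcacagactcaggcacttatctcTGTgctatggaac

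Trav14d-3-dv8 (chr14:53078746-53079045) was the most frequent Trav gene of CD8 cells in all 4 libraries, and it is printed beside its nearest copies, Trav14-3 (chr14:53763395-53763694) and Trav14n-3 (chr14:53370276-53370575). Over the whole coding part of 309 bases it was 97.41% identical to Trav14-3 and 96.76% to Trav14n-3. Capitals in Trav14d-3-dv8 mark bases that differ from either copy, and capitals in the copies mark bases that differ from Trav14d-3-dv8.
Trav14d-3-dv8: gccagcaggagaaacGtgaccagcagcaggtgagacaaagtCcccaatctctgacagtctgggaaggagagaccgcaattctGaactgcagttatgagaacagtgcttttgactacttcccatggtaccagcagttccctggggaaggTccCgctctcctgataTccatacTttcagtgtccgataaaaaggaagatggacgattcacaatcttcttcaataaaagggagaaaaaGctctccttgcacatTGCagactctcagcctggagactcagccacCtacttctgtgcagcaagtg
Trav14-3: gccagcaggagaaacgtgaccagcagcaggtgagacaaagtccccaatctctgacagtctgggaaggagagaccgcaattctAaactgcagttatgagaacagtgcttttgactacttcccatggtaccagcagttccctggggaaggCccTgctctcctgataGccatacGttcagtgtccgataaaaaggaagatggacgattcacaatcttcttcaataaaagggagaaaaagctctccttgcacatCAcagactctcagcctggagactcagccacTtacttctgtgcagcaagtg
Trav14n-3: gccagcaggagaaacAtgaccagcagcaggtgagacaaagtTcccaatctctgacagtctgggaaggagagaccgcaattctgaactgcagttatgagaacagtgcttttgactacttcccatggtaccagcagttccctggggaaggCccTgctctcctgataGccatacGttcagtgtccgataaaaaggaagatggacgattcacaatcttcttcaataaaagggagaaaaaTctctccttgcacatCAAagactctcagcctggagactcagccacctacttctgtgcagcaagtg

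These differences spread along the segment, and 7.90% of the 90-base windows of Trav14d-3-dv8 also occurred in another V gene. It had 3436 UMIs in Cd3 cells, and Trav14-3 and Trav14n-3 had 99 and 93 UMIs. The mouse α locus holds duplicated blocks, and the copies limit which Trav genes can be counted, because a read that matches more than 1 gene is not counted to either. Of 34 Trav genes with every 90-base window shared with another gene, 32 had no UMI in Cd3 cells. In contrast, the 17 Trav genes with no shared window had a median of 81 UMIs, and the 55 with some shared windows a median of 93. None of the 22 Trbv V genes shared a window, and their median was 1056.5 UMIs. The read length is not given in the sources used here, and 90 bases were taken as a working length. Trav11 and Trav11d, the α segments of invariant NKT receptors, were identical over the 290 bases they share, 100% of the windows of Trav11d were shared, and both genes had 0 UMIs, so invariant NKT receptors could not be counted by these genes.

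**Figure D1:**
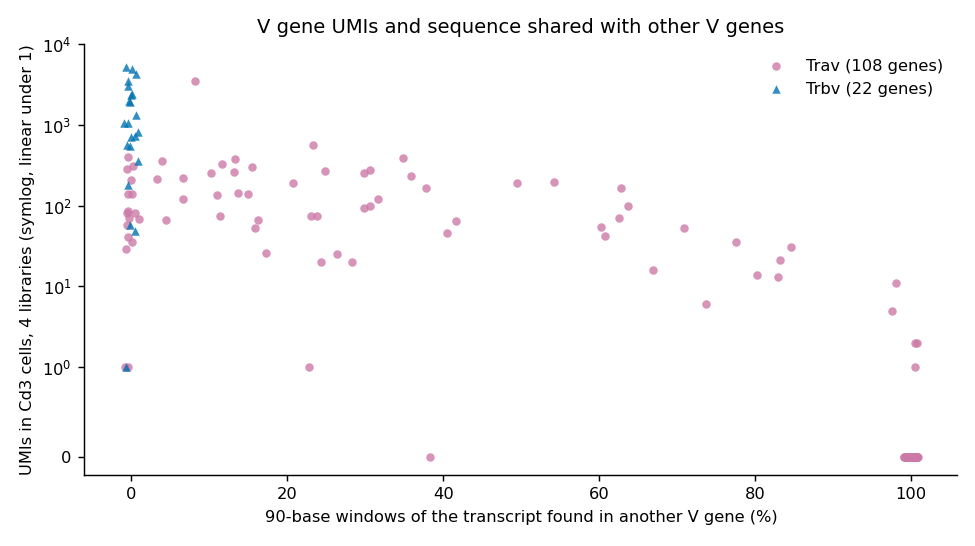
Each point is 1 of the 108 Trav and 22 Trbv V genes (pseudogenes left out), with the share of its 90-base windows that also occur in another V gene (x axis, percent) and its UMIs in Cd3 cells of the 4 libraries (y axis, symmetric log scale that is linear under 1). Trav genes with every window shared lie at or near 0 UMIs, whereas Trbv genes have no shared windows and Trav14d-3-dv8 lies at the top of the Trav genes with 3436 UMIs.

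V gene calls followed the markers of the T cell subsets. Cells with Cd8a or Cd8b1 and no Cd4 UMI (CD8 cells) had a Trbv call in 82.0% and a Trav call in 54.2% of 3655 cells. CD4 cells without Foxp3, the transcription factor of regulatory T cells, had calls in 77.1% and 49.6% of 1320 cells. CD4 cells with a Foxp3 UMI had calls in 75.0% and 57.5% of 388 cells, and in this gate Il2ra, Ikzf2 and Ctla4, other markers of regulatory T cells, were detected in 91.2, 93.6 and 94.1% of cells. In cells with B cell markers and no Cd3 UMI, taken as the level of free RNA, 2 of 580 (0.345%) had a Trbv call and 2 a Trav call. Most of these B-marker cells came from the combination library and few from the STING agonist library. Their pooled share therefore says little about free RNA in the STING agonist library. In cells with myeloid markers and no Cd3 UMI the shares were 0.988% and 0.537% of 10430. Median depths were 6665 UMIs in CD8 cells, 4654 in CD4 cells without Foxp3, 4226 in B-marker and 8563 in myeloid-marker cells, so B-marker cells were slightly shallower than CD4 cells and myeloid-marker cells deeper than both T cell gates. The shares in CD8 and CD4 cells stood far above those of both gates without Cd3. These gates leave out every droplet with a Cd3 UMI, so they do not measure how often a T cell shared a droplet. B or myeloid markers were held by 12.1% of CD8 cells and 14.1% of CD4 cells without Foxp3.

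Calls were more frequent in the STING agonist library than in the untreated library. In CD8 cells a Trav gene was called in 46.9% (43.8 to 49.9) of untreated, 72.4% (68.6 to 75.9) of STING agonist, 45.7% (42.4 to 49.0) of LTβR agonist and 58.6% (55.6 to 61.5) of combination cells. The matching Trbv shares were 77.2, 88.9, 81.0 and 83.7%. Called STING agonist CD8 cells had a median of 8 Trbv and 4 Trav UMIs, against 6 and 3 in the untreated library. The depth of CD8 cells ran from a median of 6182 UMIs in the LTβR agonist library to 7208 in the STING agonist library, and its part in these shares was not tested.

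Cells with Cd3 but without Cd4, Cd8 or Trdc (2298 cells) had Trbv calls in 45.1% and Trav calls in 25.5%. This mixed gate held B or myeloid markers in 30.5% of cells and the NK receptor gene Klrb1c in 16.8%, and Trac, Trbc1 or Trbc2 were detected in 61.3%, against 93.3% of CD8 cells. The 231 cells with both Cd4 and Cd8 UMIs had a Trbv call in 87.4%.

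**Figure D2:**
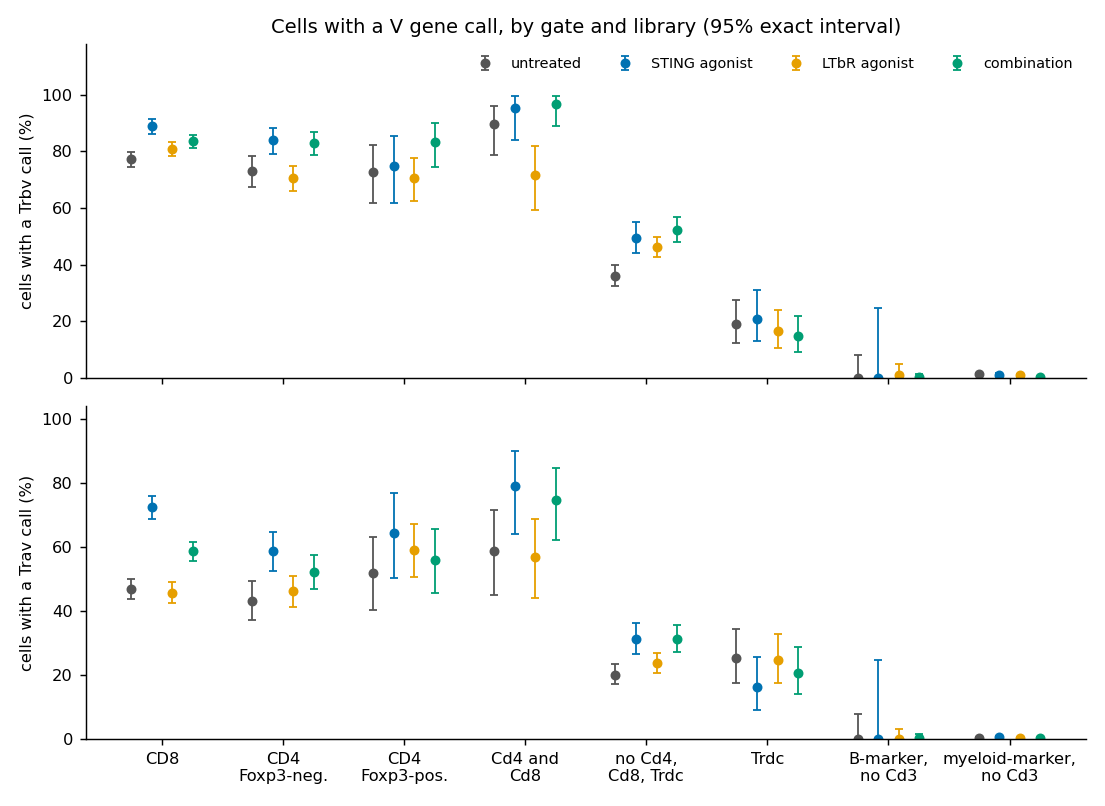
Share of cells with a Trbv call (top, percent) and a Trav call (bottom, percent) in each gate, with 1 point per library and bars for exact 95% intervals. CD8 and CD4 cells lie well above B-marker and myeloid-marker cells without Cd3, and the STING agonist library lies above the untreated library in CD8 cells for both chains.

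The leading Trbv gene of CD8 cells was another one in each library. In the untreated library Trbv3 was called in 26.0% (23.0 to 29.2) of 811 CD8 cells and Trbv29 in 20.6%. In the STING agonist library Trbv19 (20.9%; 17.5 to 24.6) and Trbv29 (20.7%) led the 531 called cells. The LTβR agonist library was more even, with Trbv1 in 13.5% (11.1 to 16.1), Trbv19 in 11.7% and Trbv15 in 10.8% of 743 cells. In the combination library Trbv13-1 reached 22.1% (19.5 to 25.0) of 913 cells, followed by Trbv19 at 17.6%.

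For these genes, the values in the other libraries were as follows. Trbv3 was found in 6.97% of STING agonist, 10.6% of LTβR agonist and 4.38% of combination CD8 cells, that is, lower in all 3 treated libraries than in the untreated library. Trbv19 was found in 5.30% of untreated CD8 cells, which was the lowest value, and the ratio to untreated was 3.94 (2.48 to 6.37) in the STING agonist, 2.21 (1.34 to 3.69) in the LTβR agonist and 3.33 (2.15 to 5.25) in the combination library. Trbv13-1 lay between 5.84 and 7.67% outside the combination library, and its combination to untreated ratio was 3.59 (2.42 to 5.41). Trbv29 was at about the same level in the untreated and STING agonist libraries and at 8.61% in the LTβR agonist and 9.31% in the combination library. Trbv1 was at 3.95, 4.14 and 1.10% outside the LTβR agonist library, so that combination cells held less of it than LTβR agonist cells (ratio 0.0814; 0.0326 to 0.181).

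Lower in abundance, Trbv14 made up 8.88% of LTβR agonist CD8 cells and between 0.767 and 0.986% of those of the other libraries. This was not limited to CD8 cells. Trbv14 made up 6.49% of LTβR agonist CD4 cells without Foxp3, against 0.995 to 2.11% elsewhere. In cells without Cd4, Cd8 or Trdc it made up 4.43%, against 1.16 to 1.70%. Trbv16 made up 8.10% of STING agonist CD8 cells, 4.17% in the LTβR agonist library and 1.73 and 1.75% in the untreated and combination libraries. Trbv4 was found in 8.26 and 8.76% of untreated and combination CD8 cells but in 2.82 and 3.36% of STING and LTβR agonist cells. Trbv12-2 stayed within 4.44 to 7.34% and Trbv15 within 5.43 to 10.8%.

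CD4 cells without Foxp3 showed a flatter usage. Trbv13-2 was called in 12.9, 11.6, 15.9 and 10.2% of cells, out of 201, 224, 308 and 285 cells with a call. Trbv31 was called in 8.96, 5.36, 8.12 and 13.3%, and Trbv13-1 in 7.46, 12.5, 6.17 and 9.82%. No Trbv gene exceeded 15.9% in any library. The effective number of Trbv genes, the inverse of the chance that 2 cells drawn from a library share a gene, was 7.48, 8.62, 11.7 and 8.72 in CD8 cells of the 4 libraries and 14.7, 14.9, 13.6 and 14.3 in CD4 cells. Thus, CD8 cells had fewer effective Trbv genes than CD4 cells in each of the 4 libraries.

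**Figure D3:**
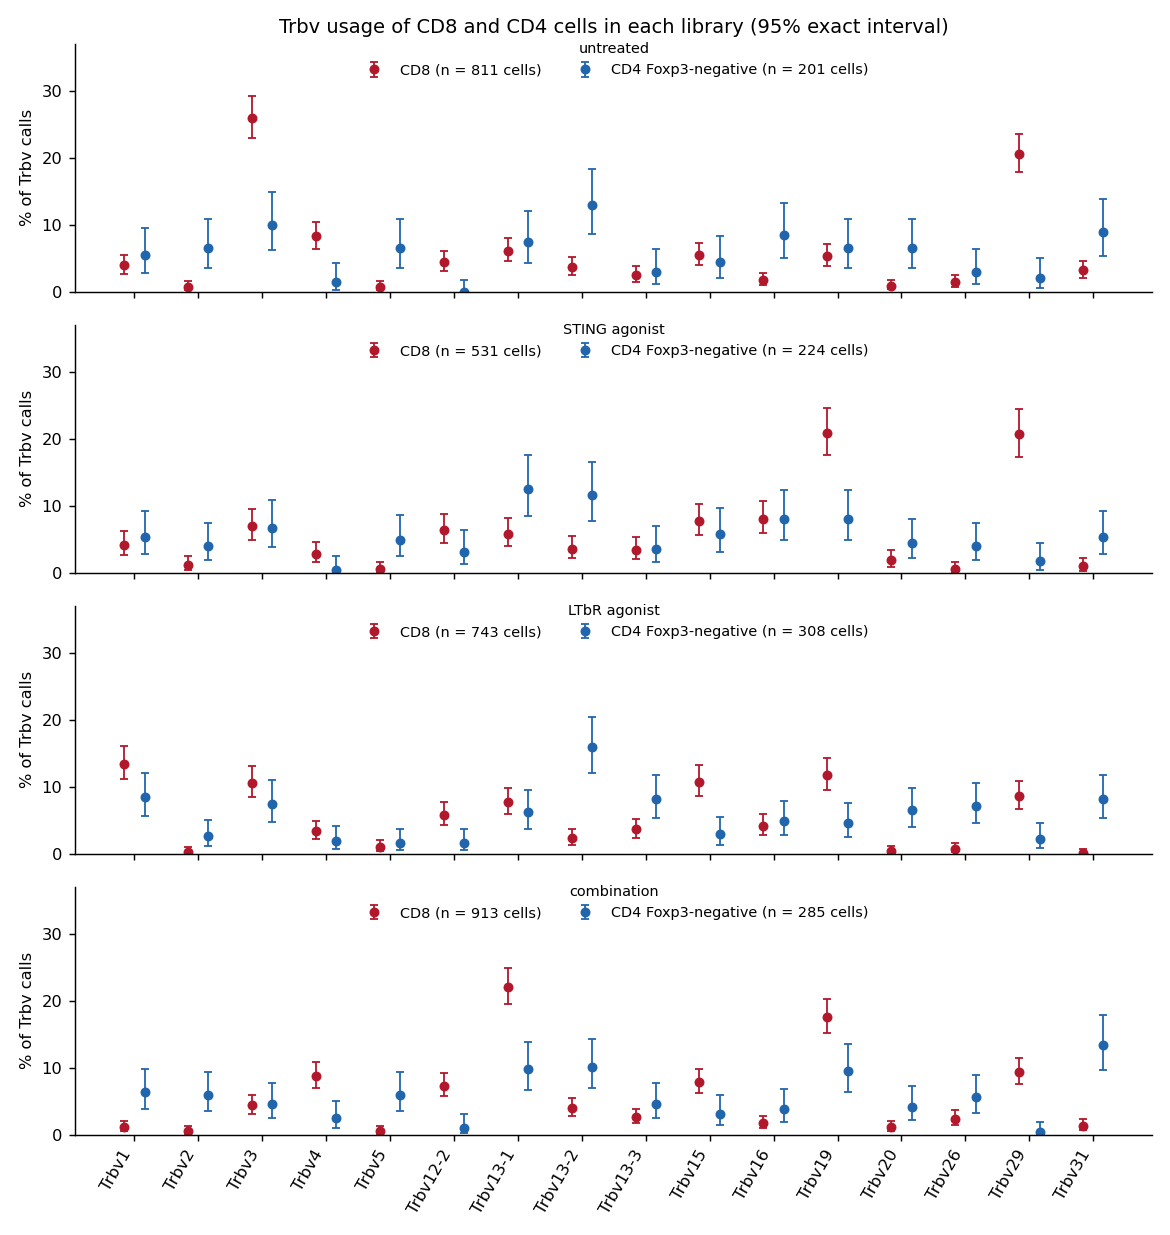
Share of Trbv calls (y axis, percent) for the 16 Trbv genes with a mean share of at least 4% in a subset, in CD8 cells (red) and CD4 Foxp3-negative cells (blue) of each library, with exact 95% intervals. The gene with the highest CD8 share changes from Trbv3 (untreated) to Trbv19 (STING agonist), Trbv1 (LTβR agonist) and Trbv13-1 (combination), whereas Trbv13-2 lies between 10.2 and 15.9% of CD4 cells in every library.

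The α chain was dominated by 1 gene in CD8 cells. Trav14d-3-dv8 was called in 103 of 492 (20.9%; 17.4 to 24.8) untreated, 191 of 432 (44.2%; 39.5 to 49.0) STING agonist, 98 of 419 (23.4%; 19.4 to 27.7) LTβR agonist and 306 of 639 (47.9%; 44.0 to 51.8) combination CD8 cells. The 2 libraries with the STING agonist were thus high and the 2 without it low. The ratio to untreated was 2.11 (1.59 to 2.81) for the STING agonist and 2.29 (1.77 to 2.98) for the combination, and the combination to LTβR agonist ratio was 2.05 (1.58 to 2.67). With 1 library per group these ratios compare libraries, not treatments.

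In CD4 cells without Foxp3, Trav14d-3-dv8 was called in 1 of 119, 2 of 156, 3 of 201 and 5 of 179 cells, which is 0.840 to 2.79%. It was called in 3 of 223 CD4 cells with Foxp3 and in 1 of 102 cells of the Trdc gate. It made up 11.8 to 23.4% of calls in cells with both Cd4 and Cd8 UMIs. Joined with its copies, the Trav14 subgroup made up 24.6, 46.5, 26.7 and 49.4% of CD8 calls. In CD4 cells without Foxp3 it made up 7.56, 13.5, 9.45 and 12.8%, and Trav14-2 was its most frequent member.

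Other Trav genes were frequent in single libraries. Trav16 was called in 16.9% of untreated CD8 cells and in 2.78 to 4.85% of those of the other libraries. Trav16 shares windows with Trav16n and Trav16d-dv11, and joined as a subgroup they made up 19.3, 10.6, 9.07 and 10.5% of CD8 calls, a smaller excess in the untreated library. Trav12-1 was called in 12.4% of untreated CD8 cells and in 0.782 to 2.63% elsewhere. Trav12-2 and Trav7d-4 were called in 12.6 and 8.83% of LTβR agonist CD8 cells, against at most 1.39 and 3.05% in the other libraries. Trav8n-2 and Trav13-2 were highest in the combination library, at 6.42 and 4.69%. In CD4 cells without Foxp3 no Trav gene exceeded 9.62%. The leading genes of these cells by the mean over libraries were Trav14-2 (5.25%), Trav6n-6 (4.93%) and Trav9-1 (4.52%). The effective number of Trav genes was 10.4, 4.84, 11.5 and 4.12 in CD8 cells, in the order of the libraries given above. It was 36.2, 33.5, 42.0 and 34.0 in CD4 cells without Foxp3.

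**Figure D4:**
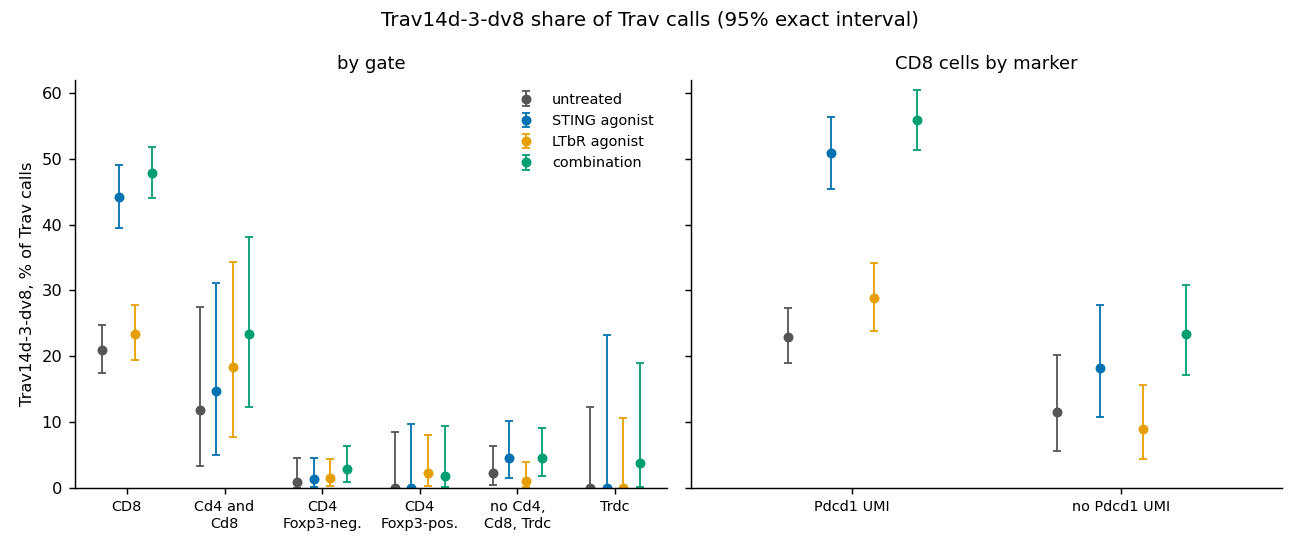
Share of Trav calls that were Trav14d-3-dv8 (y axis, percent) by gate (left) and in CD8 cells by marker (right), with 1 point per library and exact 95% intervals. On the left, CD8 cells of the STING agonist (44.2%) and combination (47.9%) libraries lie above those of the untreated (20.9%) and LTβR agonist (23.4%) libraries, and CD4 cells without Foxp3 lie at or below 2.79% in every library. On the right, CD8 cells with a Pdcd1 UMI (23.0, 50.9, 28.8 and 55.9% by library) lie above those of the same library without one (11.5, 18.2, 8.85 and 23.4%). The intervals overlap in the untreated library, and cells with a Pdcd1 UMI are deeper.

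Both chains together define a V pair. In untreated CD8 cells the most frequent pair was Trav16 with Trbv3, in 78 of 425 cells with both calls (18.4%), followed by Trav12-1 with Trbv4 in 35 cells, a pair seen in 0 of 400, 0 of 375 and 0 of 586 cells of the treated libraries, which allows shares of up to 0.750, 0.800 and 0.512% (3 counts). In the STING agonist library Trav14d-3-dv8 was paired with Trbv29 in 74 of 400 cells (18.5%) and with Trbv19 in 51. In the LTβR agonist library Trav14d-3-dv8 with Trbv15 led (41 of 375; 10.9%), then Trav7d-4 with Trbv14 (34 cells, and 0 in each of the other libraries, which allows up to 0.750%) and Trav12-2 with Trbv1 (27 cells). In the combination library Trav14d-3-dv8 with Trbv13-1 made up 138 of 586 cells (23.5%; 20.2 to 27.2), against 3, 9 and 11 cells in the untreated, STING agonist and LTβR agonist libraries. Trbv13-1 and Trav14d-3-dv8, the most frequent V genes of the combination library, thus occurred together in the same cells.

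Trav14d-3-dv8 did not stand for a single pair. It was joined with 11 Trbv genes in the untreated, 9 in the STING agonist, 8 in the LTβR agonist and 10 in the combination library, with effective numbers of 6.28, 3.67, 3.81 and 3.58. Its pairs with Trbv15 (25, 23, 41 and 39 cells) and Trbv29 (17, 74, 20 and 32 cells) were found in at least 5 cells of every library, and these were the only 2 pairs of any kind for which this held. Of 50 pairs found in at least 5 CD8 cells of a library, 21 were seen in 1 library only, 16 in 2, 6 in 3 and 7 in all 4. Of the 7, 5 held Trav14d-3-dv8, and the other two were Trav16 with Trbv3 and Trav12-1 with Trbv19. Pairs in at least 5 cells held 60.9, 63.5, 59.2 and 69.6% of paired CD8 cells. In paired CD4 cells without Foxp3 they held 0, 15.6, 13.6 and 13.6%, but there were fewer such cells (94 to 162 per library, against 375 to 586). The chance that 2 CD8 cells of a library shared a pair was 5.16, 5.86, 3.45 and 7.33%, higher than the product of the chances for each chain (1.52, 2.68, 0.886 and 3.20%). This excess was not limited to CD8 cells. The ratio to the product was 3.39, 2.18, 3.89 and 2.29 in CD8 cells. It was 2.64, 4.77, 4.04 and 4.02 in CD4 cells without Foxp3 and 4.30, 3.48, 3.27 and 3.03 in those with Foxp3.

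Among CD4 cells without Foxp3 the most frequent pair of a library reached 6.49% (Trav3-1 with Trbv2, 10 of 154 combination cells). Among CD4 cells with Foxp3, Trav13-1 with Trbv3 made up 12 of 37 untreated cells with both calls (32.4%). Trav7d-4 with Trbv14, the LTβR agonist pair of CD8 cells, was also found in 5 of 162 CD4 cells without Foxp3 of the LTβR agonist library.

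**Figure D5:**
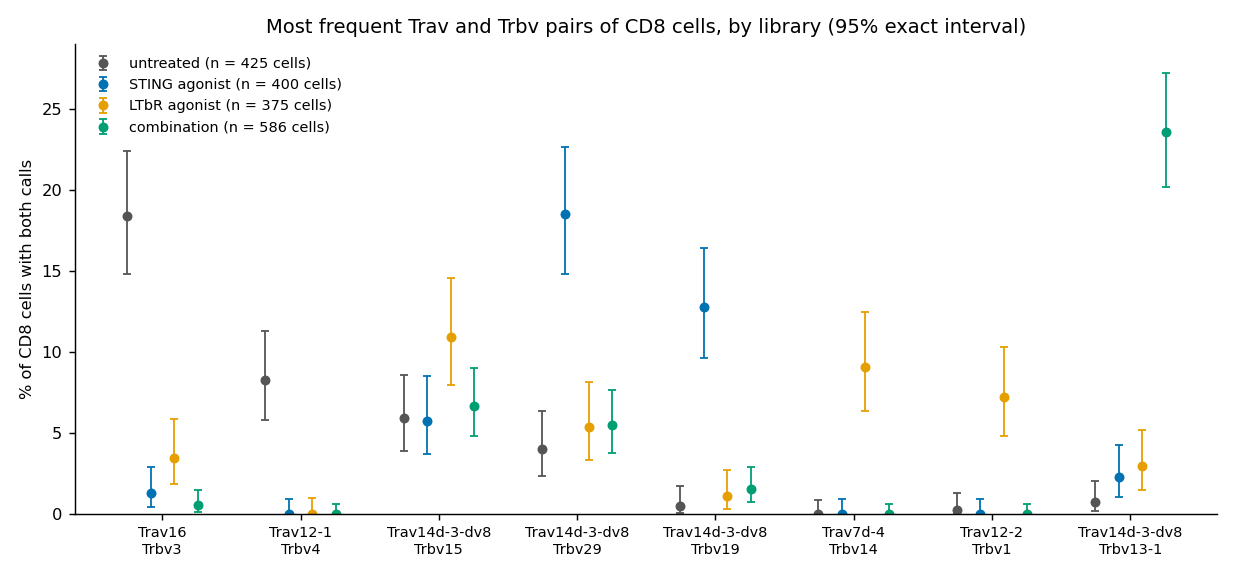
Share of CD8 cells with both calls (percent) that held each of the most frequent V pairs, with 1 color per library and bars for exact 95% intervals. Trav16 with Trbv3 leads the untreated library (18.4%), and Trav14d-3-dv8 leads the others, with Trbv29 under the STING agonist (18.5%), Trbv15 under the LTβR agonist (10.9%) and Trbv13-1 in the combination (23.5%).

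Because each library holds both CD8 and CD4 cells, the subsets could be compared with the libraries as replicates, using UMI sums per subset and library and edgeR's quasi-likelihood test with the library as a block and Benjamini-Hochberg adjustment over all genes. The 4 libraries have different treatments. The block takes up what both subsets of a library share, but not a difference between subsets that changes with treatment. Of 45 V genes tested, 9 (20.0%) were higher in CD8 cells, beside 13.4% of all 11031 genes tested, and 16 (35.6%) were lower, beside 16.5% of all genes. The median log2 fold change was −0.72 over the V genes tested and 0.02 over all genes. Low genes entered only if 1 subset was high enough, so these counts describe the genes that passed.

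Trav14d-3-dv8 had 62.7, 250.4, 57.0 and 129.7 CPM (UMIs scaled to the same total in every subset and library) in CD8 cells of the 4 libraries, against 6.55, 8.42, 1.17 and 4.86 in CD4 cells. It was higher in CD8 cells by 4.61 on the log2 scale (SE 0.22, edgeR adjusted p = 1.25e-07), and the subsets did not overlap. Trav16 had 346, 34, 27 and 90 UMIs in CD8 cells and 3, 1, 0 and 1 UMIs in CD4 cells. It entered the test through CD8 cells alone, and since its fitted fold depends on the prior count, none is given. Trbv29 was higher by 3.24 (SE 0.21, edgeR adjusted p = 1.2e-06), with 39.6 to 200.8 CPM in CD8 and 7.08 to 16.8 CPM in CD4 cells. Trav16n, Trbv15 and Trbv4 were higher in CD8 cells by 1.80, 1.72 and 1.70. These genes were higher in CD8 cells in 4 of 4 libraries. Few CD4 cells without Foxp3 had a call of Trav14d-3-dv8 (1, 2, 3 and 5 by library) or Trbv29 (4, 4, 7 and 1). The same held for Trav16n (2, 5, 2 and 3) and Trbv4 (3, 1, 6 and 7). The sizes of the folds given for Trav14d-3-dv8, Trbv29, Trav16n and Trbv4 thus depend on the prior count as well.

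Among the V genes lower in CD8 cells, Trav5-1 had 1, 4, 1 and 2 UMIs in CD8 cells and 8, 10, 21 and 12 in CD4 cells, so that its fitted fold likewise depends on the prior count and is not given. The others with the largest differences were Trav14-2, Trbv5, Trbv20 (log2 −2.86, SE 0.27, edgeR adjusted p = 1.71e-05), Trav3-1 and Trbv31 (−2.43). Each was lower in CD8 cells in every library. Few CD8 cells had a call of Trav14-2 (4, 1, 3 and 2 by library), Trbv5 (6, 3, 8 and 5) or Trav3-1 (2, 2, 0 and 7). The fitted folds of these genes also depend on the prior count and are not given. For Trbv20, the level was 5.79, 9.80, 1.48 and 3.60 CPM in CD8 cells and 35.7, 60.3, 33.1 and 19.5 CPM in CD4 cells, 2 ranges that did not overlap. Trbv13-2, the most frequent CD4 gene, was lower by 1.63 (SE 0.18, edgeR adjusted p = 6e-05). Thus, Trav14-2 and Trav14d-3-dv8, members of the same subgroup, were called in opposite directions. The call for Trbv3 (1.24 higher in CD8 cells in 3 of 4 libraries) was lost when the untreated or the LTβR agonist library was left out, with DESeq2 and without the library block. Without the block the calls for Trav16n and Trav3-1 were also lost. With gates set on cells thinned to 1000 UMIs, Trav5-1 and Trbv5 did not enter the test.

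Foxp3-positive and other CD4 cells were compared in the same way. Of 20 V genes tested, 1 (5.00%) was higher in Foxp3-positive cells, beside 7.82% of all 8942 genes, and 3 (15.0%) were lower, beside 7.34%. Trbv13-1 had 19.9, 57.9, 7.77 and 20.0 CPM in Foxp3-positive cells and 60.1, 179.6, 32.7 and 111.4 CPM in other CD4 cells, lower in every library although the ranges over libraries overlap (log2 −1.97, SE 0.19, edgeR adjusted p = 0.000105). With gates set on cells thinned to 1000 UMIs it was not called (log2 −0.85, edgeR adjusted p = 0.19). Trbv13-2 was lower by 1.36 (SE 0.19, edgeR adjusted p = 0.000844). Trbv16 (log2 −0.61) and Trav4-3 (0.89) lay close to the threshold, with adjusted p of 0.0419 and 0.048 by edgeR, and were not called under several alternatives. The Trav4-3 call was lost without any 1 of the 4 libraries, and the Trbv16 call without the STING agonist, the LTβR agonist or the combination library. In the untreated library Trbv3 was called in 18 of 59 Foxp3-positive cells (30.5%; 19.2 to 43.9) and Trav13-1 in 14 of 42 (33.3%; 19.6 to 49.5), and 12 of 37 cells with both calls held this pair. It was found in 1 of 61 LTβR agonist and in 0 of 29 STING agonist and 0 of 46 combination cells with both calls, which allows up to 10.3 and 6.52%. Trbv3 was not called between the 2 CD4 gates over the 4 libraries.

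Within CD8 cells, those with a UMI of Pdcd1, the gene of the inhibitory receptor PD-1, were compared with those without. Of 30 V genes tested, 5 (16.7%) were higher in Pdcd1 cells, beside 11.8% of 10510 genes, and 4 (13.3%) were lower, beside 13.4%. Trav14d-3-dv8 was higher by 2.05 (SE 0.16, edgeR adjusted p = 2.01e-05), with 72.9, 299.1, 72.1 and 152.2 CPM in Pdcd1 cells and 16.4, 43.9, 18.9 and 51.6 CPM in other CD8 cells. The other V genes that were higher were Trbv13-1 (1.83), Trbv15 (1.53), Trbv19 (1.23) and Trbv29 (1.20), which are the β partners of Trav14d-3-dv8 in its most frequent pairs. Trbv26 (−1.62), Trbv12-1 (−1.35), Trbv13-3 (−1.02) and Trbv13-2 (−0.65) were lower. Pdcd1 cells had more UMIs (medians of 6928 to 7481 per library, against 4789 to 5791), and a Pdcd1 UMI is more likely in a deep cell. When the gate was set after each cell was thinned to 1000 UMIs, 2 V genes were called, the Trav14d-3-dv8 difference was 0.15 (edgeR adjusted p = 0.70), and Trbv15 (−0.37) and Trbv26 (0.23) changed sign, but 67.7% of the 1699 cells then counted as without Pdcd1 had a Pdcd1 UMI before thinning. Without the library block 3 V genes were called, and the calls for Trbv13-1, Trbv19, Trbv29, Trbv26, Trbv12-1 and Trbv13-2 were lost. The call for Trbv12-1 was lost without the untreated library, that for Trbv26 without the combination library, and that for Trbv13-2 without the STING agonist, the LTβR agonist or the combination library.

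By cells, Trav14d-3-dv8 made up 23.0, 50.9, 28.8 and 55.9% of Trav calls in Pdcd1 cells and 11.5, 18.2, 8.85 and 23.4% in CD8 cells without Pdcd1. In the untreated library the intervals overlapped (19.0 to 27.4 against 5.65 to 20.1). The effective number of Trav genes was 3.07 to 8.90 in Pdcd1 cells and 14.0 to 33.3 without Pdcd1, beside 33.5 to 42.0 in CD4 cells without Foxp3. These values are at deposited depth, where Pdcd1 cells were the deeper ones, and the part of depth was not tested for them.

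CD8 cells with Trav14d-3-dv8 had Lag3, another inhibitory receptor gene, in 94.2, 96.3, 93.9 and 88.2% of cells, against 81.5, 75.5, 67.9 and 62.2% of CD8 cells with another Trav gene. Havcr2, which encodes TIM-3, was detected in 79.6, 85.3, 75.5 and 80.7% against 68.9, 53.5, 56.1 and 53.5%. It was also detected in 53.9% of myeloid-marker cells without Cd3 and in 0.862% of B-marker cells, and 12.1% of all CD8 cells held B or myeloid markers, whose part in these shares was not tested. Cells with Trav14d-3-dv8 were deeper (medians of 7888 to 9268 against 6622 to 7710 UMIs). After thinning to 1000 UMIs the Lag3 shares were 58.8, 49.2, 37.8 and 45.8% against 41.9, 41.9, 30.8 and 26.1%, higher in Trav14d-3-dv8 cells in 4 of 4 libraries, and the intervals were apart in the untreated and combination libraries. Thinned Havcr2 shares were 24.5, 30.4, 21.4 and 31.4% against 23.4, 19.5, 18.1 and 17.4%, with intervals apart in the combination library only. Thinned Pdcd1 shares were 32.4 against 35.7% in the untreated and 28.6 against 28.3% in the LTβR agonist library, but 47.6 against 33.2% and 39.5 against 24.0% in the STING agonist and combination libraries. In B-marker cells at deposited depth, Lag3 was found in at most 1 of 13 cells (STING agonist) and in 3 of 409 cells of the combination library. The replication genes Mki67 and Top2a were found in 17.5 to 25.5% and 18.4 to 35.7% of Trav14d-3-dv8 cells, and in each library the intervals of their thinned shares overlapped with those of the other CD8 cells.

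Summed over all Cd3 cells, V transcripts made up 798.5, 1249, 656.3 and 925.2 CPM in the 4 libraries. In such sums, as in bulk samples, fewer cells with a receptor and less RNA per cell cannot be told apart. On the scale of log2(CPM + 10), 18 of the 42 V genes with enough UMIs were at least 1.5-fold higher and 4 lower in the STING agonist than in the untreated library (42.9 and 9.52%), beside 0.872 and 1.9% of all 10892 genes. In the LTβR agonist library 4 of 39 were higher and 7 lower (10.3 and 17.9%), beside 0.654 and 0.842% of all genes. In the combination library 7 of 47 were higher and 5 lower (14.9 and 10.6%), beside 0.782 and 3.22%. All 3 comparisons share the untreated library, and none could be tested.

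The largest V gene differences followed the usage of CD8 cells, and for Trbv14 also that of CD4 cells without Foxp3. Against untreated, Trbv19 (log2 1.88, Poisson 95% interval 1.70 to 2.06), Trav14d-3-dv8 (1.63) and Trbv16 (1.49) were highest in the STING agonist library, and Trbv3 (−1.46), Trav16 (−1.10) and Trav12-1 (−0.92) lowest. Trbv14 (1.44), Trav12-2 (0.94) and Trbv1 (0.67) were highest in the LTβR agonist library, and Trbv3 (−1.62), Trav16 (−1.39) and Trbv29 (−1.36) lowest. Trbv13-1 (1.80), Trbv17 (1.48) and Trbv19 (1.22) were highest in the combination library, and Trbv3 (40.7 against 192.0 CPM), Trav12-1 (−1.11) and Trav16 (−0.97) lowest. Trbv3 thus had the lowest ratio in all 3 comparisons, from 192.0 CPM in the untreated library to 40.7 to 63.6 CPM in the others.

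The other genes of the receptor and its signaling did not pass this fold. None of 14 that had enough UMIs was past 1.5-fold in any of the 3 comparisons. Few of all genes were either. In the STING agonist, LTβR agonist and combination libraries 0.872, 0.654 and 0.782% of all genes were higher, and 1.9, 0.842 and 3.22% lower. The count therefore does not set these 14 genes apart. Trac, the α constant gene, had log2 ratios of −0.01, −0.03 and −0.19 in the STING agonist, LTβR agonist and combination libraries. Trbc1 and Trbc2, the β constant genes, had −0.34 and −0.33 in the STING agonist library, and Trbc1 had 0.39 in the LTβR agonist library. The kinase gene Lck and the adaptor gene Lat had 0.42 and 0.49 in the STING agonist library.

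Cells without Cd4 and Cd8 and with a UMI of Trdc, the δ constant gene, were scarce in Trbv calls (17.4% of 461 cells) and carried other Trav genes. Tcrg-C1, a γ constant gene, was detected in 53.4% of them and in 1.29% of CD8 cells. Trav13-4-dv7 was called in 39 of 102 cells with a Trav call (38.2%; 28.8 to 48.4), namely 8, 5, 15 and 11 cells of the 4 libraries, against 0.313 to 1.91% of Trav calls in CD8 cells, 0.498 to 1.68% in CD4 cells without Foxp3 and 0 or 1 cell per library in CD4 cells with Foxp3. Trav15-2-dv6-2 and Trav15d-1-dv6d-1 followed with means over libraries of 13.9 and 10.3%. Genes with dv in the name made up 80.4% (71.4 to 87.6) of Trav calls in this gate, 11.8% in CD4 cells without Foxp3 and 40.7% in CD8 cells (5.45% for dv genes other than Trav14d-3-dv8). The dv share of the Trdc gate was between 71.4 and 85.2% in the 4 libraries.

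Trav1, the α segment of mucosal-associated invariant T cells, was called in 4, 17, 0 and 20 CD8 cells of the 4 libraries (0 of 419 LTβR agonist cells allows up to 0.716%). In the combination library 15 of these were paired with Trbv12-2, and in the STING agonist library 10 with Trbv29. In cells without Cd4, Cd8 or Trdc, Trav1 was called in 12 of 585 cells (2.05%), namely 2, 4, 3 and 3 by library. This share was close to that of all CD8 cells (41 of 1982, 2.07%). Traj33, the joining segment of the invariant receptor, had 0 UMIs in the 64 Cd3 cells with a Trav1 call and 43 UMIs in all Cd3 cells.

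A second Trbv gene with at least 2 UMIs was found in 6.47% (5.62 to 7.41) of CD8 cells with a Trbv call, from 2.83% in the LTβR agonist to 9.86% in the untreated library. A second Trav gene was found in 8.07% (6.91 to 9.36), from 5.49% in the LTβR agonist to 14.1% in the STING agonist library. The 2 chains therefore had their highest shares in different libraries. In CD4 cells without Foxp3 the shares were 3.63 and 5.80%. In cells with both Cd4 and Cd8 UMIs, a gate whose median depth was 9082 UMIs, the share with a second Trbv gene was 17.3 to 29.5% by library. No doublets were removed.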

How the data were processed

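Gene by cell matrices of raw UMI counts were deposited, made by the authors with Cell Ranger 7.1.0 on mm10, with reads of droplet barcodes collapsed to UMIs. Cells with 300 to 5000 genes and at most 6% mitochondrial UMIs were kept (23011 of 24839), as in the study, and doublets were not removed. Filtered cells per library ranged from 3748 to 7147. V genes were matched by gene ID to GENCODE M21 on GRCm38 (163 of 163), and copies were measured by shared 90-base windows. T cells had a UMI of Cd3d, Cd3e or Cd3g, and gates used Cd4, Cd8a, Cd8b1, Foxp3 and Trdc UMIs. The members, gene lists and gates were chosen with earlier results of these data known. Each group is 1 library, so treatments were described with exact (Clopper-Pearson) or Poisson 95% intervals, and not tested. Such intervals cover counting error only. Subsets were compared with edgeR 4.0.16 (R 4.3.3) on UMI counts summed per library and subset, after filterByExpr, with TMM factors, a quasi-likelihood F-test and the library as a block. Benjamini-Hochberg adjustment ran over all genes, with a threshold of 0.05, and edgeR was tested on simulated data. The libraries of the 4 treatments served as replicates. With the library as a block, p-values measure how the difference between subsets varied over these libraries. Treatment levels were log2 ratios of CPM + 10 for genes with at least 50 UMIs in 1 of the libraries compared. Named genes were Trbv genes with a mean share of at least 4% in a subset, the 8 leading Trav genes and subgroups of CD8 and CD4 cells, at most 6 called V genes per direction in each subset comparison, the 3 highest and 3 lowest ratios past the fold, the 3 leading pairs in at least 5 cells, and receptor genes fixed in a list. Other V genes named for 1 library and the pairs seen in all libraries were chosen after their values were seen. Alternatives covered the gates, the call minimum, thinning, ties, subgroups, marker-mixed cells, normalization (DESeq2 1.42.0 and size factors), the block, pseudocounts and leaving out each library.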

Additional observations from a re-analysis of the deposited data

Results flagged for a closer look

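Trbv13-1 differed in direction between libraries when CD8 cells were set against CD4 cells without Foxp3. In the combination library its share of Trbv calls was 12.3 percentage points higher in CD8 cells (22.1 against 9.82%), whereas in the STING agonist library it was lower in CD8 cells, with a difference of −6.66 points (5.84 against 12.5%). Both values stood out because the sign of the difference changed between libraries. With 1 library per group the difference between them was not tested.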

How the results depend on the processing

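No paired analysis was possible because each group is 1 library and the labels carry no replicate numbers shared between groups; the library block pairs the subsets within a library. Without that block the V genes called numbered 19 for CD8 against CD4, 2 for Foxp3 and 3 for Pdcd1, against 25, 4 and 9. Both settings tested 45, 20 and 30 V genes. Without a filter on low counts they numbered 50 of 103 tested for CD8 against CD4, 20 of 98 for Foxp3 and 25 of 101 for Pdcd1. With gates on thinned cells they numbered 19 of 35 for CD8 against CD4, 1 of 7 for Foxp3 and 2 of 28 for Pdcd1, where Trbv15 (−0.37) and Trbv26 (0.23) reversed. For Foxp3, DESeq2 gave 2 of 20, and leaving out marker-mixed cells gave 2 of 19. Leaving out each library gave 23 to 28, 3 to 6 and 9 to 12 called V genes. The V genes tested then numbered 47 to 50, 21 to 25 and 30 to 34.

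A call minimum of 2 UMIs moved the call shares to 54.5% (Trbv) and 27.9% (Trav), the Trav14d-3-dv8 shares of CD8 cells to 24.9, 50.3, 36.0 and 55.0%, Trbv3 (untreated) to 29.8%, and the leading pairs to 24.4% (untreated), 18.9% (LTβR agonist) and 27.9% (combination). Thinning to 1000 UMIs gave calls of 41.6 and 19.2%, Trav14d-3-dv8 shares of 26.7% (untreated) and 50.6% (STING agonist), Trbv3 32.9%, Trav16 with Trbv3 23.0%, Trbv13-1 (combination) 27.0%, and second genes in 0.222% (Trbv) and 0% (Trav). A Cd3 gate of 3 UMIs gave calls of 78.4 and 51.6%, leaving out marker-mixed cells 72.1 and 48.0%, and splitting ties 68.8 and 47.9%. By subgroup, Trbv13 held 28.9% of combination CD8 cells. Second genes of 1 UMI were found in 20.3 and 25.4%, and of 3 UMIs in 3.14 and 3.33%.

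In the main setting, 22 of 42, 11 of 39 and 12 of 47 V genes passed the fold (STING agonist, LTβR agonist and combination). With a pseudocount of 50 CPM they numbered 4, 2 and 4 of the same genes. In CD4 cells alone they numbered 9 of 14, 5 of 16 and 3 of 13. A pseudocount of 1 CPM gave 21 of 39 (LTβR agonist) and 26 of 47 (combination, of which 73.1% were higher, against 58.3%). A minimum of 200 UMIs gave 13 of 17 (STING agonist). Shares over all genes were not taken under these settings. Among the main results, such as call shares, leading genes, leading pairs and counts of V genes, 132 alternatives stayed the same and 48 moved. A share moved if it left its main 95% interval, and a count if it changed by more than 1.5-fold. Among genes named in the subset comparisons, 234 alternatives kept the call, 36 lost it with the direction kept, and the 2 that reversed lost it as well. The causes were not tested. At this depth 44.3% of Cd3 cells had a Trav call and 67.4% a Trbv call, so Trav shares rest on fewer cells.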
